A study of Rattus norvegicus with 24 samples.

Results

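The genes of the proteasome were followed in the hearts of 24 male Wistar Kyoto rats, in RNA of the left ventricle plus septum, each hybridized to its own Affymetrix rat expression array. Members were the genes with a symbol beginning Psma, Psmb, Psmc, Psmd, Psme, Psmf, or Psmg among the probe sets annotated to a single gene, each gene represented by its brightest probe set, and 43 of 10411 genes met this rule. Of these, 5 were the immune subunits Psmb8, Psmb9, Psmb10, Psme1, and Psme2, and 36 were constitutive members. The remaining 2, Psmc3ip and Psme3ip1, share the symbol but encode no proteasome component. All 43 had a mean signal above the median of all probe sets, and none was lost to a filter on low values.

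Rats in 6 groups of 4 received weekly intratracheal instillations at 1 mL/kg. The zinc sulfate group received a solution labeled as 14.5 µg/mL zinc sulfate, whereas the protocol in the labels states 33.4 µg/mL zinc. PM-HD was labeled as a particle suspension with 14.5 µg/mg zinc and 3.0 µg/mg nickel, and PM-LD as one with 7.25 µg/mg zinc and 1.5 µg/mg nickel. In the paper PM-LD is the same particle sample at a lower dose than PM-HD, so these figures do not mean a different particle. PM-L was the filtered soluble fraction of the particles. MSH was volcanic ash of Mount St. Helens, a particle free of water-soluble zinc, and saline was the vehicle. The labels give neither age nor week of necropsy for the arrays. The paper places the arrays of saline, MSH, PM-HD, and zinc sulfate hearts at the shorter of its exposure periods, which used doubled weekly doses. It names no period for arrays of PM-LD and PM-L hearts. For zinc sulfate, the paper lists the zinc amount of the labels' protocol under the longer period. All groups share the strain and sex. Heart tissue was homogenized whole, so that a change in cell makeup and a change of RNA per cell cannot be told apart.

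The proteasome degrades proteins tagged with ubiquitin. Its 20S core is a barrel of alpha rings around beta rings that carry the proteolytic sites, and the 19S particle caps the barrel, binds and unfolds substrates with a ring of ATPases, and removes ubiquitin. Under interferon-gamma, newly made cores take up Psmb8, Psmb9, and Psmb10 in place of the constitutive catalytic subunits Psmb5, Psmb6, and Psmb7, and Psme1 and Psme2 form the PA28 cap. These immunoproteasomes cut peptides for presentation on class I molecules. The transcription factor Nfe2l1 raises the constitutive subunit genes together when proteasome activity falls, so that both programs can be read from RNA.

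The start sites of the immune genes Psmb8, Psmb9, Psmb10, and Psme2 differ in sequence from that of Psmb5, a constitutive partner. These stretches, without that of Psme1, are shown because the immune genes are the ones set against the constitutive ones throughout. Each runs from 100 bases before to 10 bases after the annotated start (RefSeq, GRCr8), on the strand of the gene. Capitals mark matches, on either strand, to the core of the interferon-stimulated response element (GAAA, any 2 bases, GAAA), to TTCNNNGAA, the core of the interferon-gamma activated site, or to TGACNNNGC, the core of the antioxidant response element that Nfe2l1 and Nfe2l2 bind. They lie at chr20:4657022-4657131 (minus strand) for Psmb8, chr20:4668900-4669009 (plus) for Psmb9, chr19:50743283-50743392 (minus) for Psmb10, chr15:33052742-33052851 (minus) for Psme2, and chr15:32047370-32047479 (minus) for Psmb5.
Psmb8: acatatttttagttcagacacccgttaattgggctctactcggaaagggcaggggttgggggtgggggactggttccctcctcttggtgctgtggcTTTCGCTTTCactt
Psmb9: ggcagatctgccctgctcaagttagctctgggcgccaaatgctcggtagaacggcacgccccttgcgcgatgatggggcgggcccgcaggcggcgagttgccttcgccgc
Psmb10: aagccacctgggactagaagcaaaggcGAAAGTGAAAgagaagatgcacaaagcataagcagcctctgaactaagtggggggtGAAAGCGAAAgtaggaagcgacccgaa
Psme2: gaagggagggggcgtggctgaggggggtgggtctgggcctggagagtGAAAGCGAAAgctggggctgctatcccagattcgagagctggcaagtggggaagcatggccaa
Psmb5: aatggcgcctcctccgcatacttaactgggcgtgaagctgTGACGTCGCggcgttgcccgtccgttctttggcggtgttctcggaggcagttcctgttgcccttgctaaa

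Over the full promoter window of 300 bases given by RefSeq, which starts farther upstream and ends 50 bases after the start, the interferon-stimulated core was found in 3 of 5 immune genes (Psmb8, Psmb10, and Psme2), in 4 of the 34 constitutive genes with a window (Psma4, Psmb3, Psmd7, and Psmg4), and in 3.92% of 33469 promoters of the table. TGACNNNGC was found in 0 of 5 immune genes, in 7 of 34 constitutive genes, Psmb5, Psmd1, Psmd3, and Psmd9 among them, and in 12.1% of all promoters. TTCNNNGAA was found in Psmb8, in 2 of 34 constitutive genes, and in 8.87% of all. The windows of Psmb9 and Psme1 held none of the 3, and the window of Tap1, the gene of a peptide transporter subunit listed between Psmb8 and Psmb9 on chromosome 20, held the interferon-stimulated core. A match describes the letters only.

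Each array had been scaled to the same trimmed mean, and the median signal of an array lay between 205.5 and 278.2. The Gapdh control ratio (3′ probe set over 5′ probe set), which rises as RNA is degraded, ran over the arrays between 1.11 and 5.62, with 9 of 24 above 3: 1 of zinc sulfate, 2 of PM-HD, 1 of PM-LD, 2 of PM-L, 2 of MSH, and 1 of saline. Transcripts of ventricular muscle were among the brightest, with all 6 measured markers above the median of all probe sets. Atrial transcripts (mean log2 signal of Nppa, Myl7, Myl4, and Sln above 11) stood high on 6 arrays, at most 2 in any group. The title of saline replicate 1, which is 1 of these 6, carries an array number out of sequence with its group.

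With no array left out, none of the 5 immune subunit genes passed the test in any of the 6 comparisons. Psmb8 and Psmb9 did in some comparisons without the 9 arrays of Gapdh ratio above 3. Psmb10 did for zinc sulfate against MSH when zinc sulfate replicate 3 alone was left out. A gene was called at limma p below 0.05 with a log2 fold change above 0.32 or below −0.42, on log2(signal + 16), and fold changes on this scale understate those of dim probe sets. Psmb8 (LMP7), the immune form of the chymotrypsin-like subunit, had signals of 471, 396, 1112, and 472 in zinc sulfate hearts, 682, 468.5, 787, and 1099.5 in PM-HD, and 563, 439.6, 816, and 355.5 in PM-LD. Its signals were 654, 435, 1107, and 1010.4 in PM-L, 654, 626, 563, and 729 in MSH, and 531, 631, 901, and 844 in saline hearts. A single zinc sulfate rat stood well above the other 3, and every exposed group overlapped saline. The log2 difference from saline was −0.26 (95% interval −0.88 to 0.35) with zinc sulfate and −0.40 (−1.05 to 0.25) with PM-LD, and between −0.17 and 0.11 in the other groups.

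Psmb9 (LMP2), encoded near Psmb8 in the major histocompatibility complex, likewise overlapped saline in every exposed group. Its signals were 637, 525, 1221, and 434 in zinc sulfate, 886, 665, 874.5, and 1258 in PM-HD, and 663, 443, 883, and 361 in PM-LD hearts. They were 821, 445.5, 1218, and 1061 in PM-L, 961, 810.1, 838, and 980.3 in MSH, and 789.5, 591, 873, and 1114 in saline hearts. Of the PM-LD rats 2 lay below every saline rat and the other two inside the saline range. The difference of PM-LD from saline, −0.51 on the log2 scale (−1.15 to 0.14), was the largest of any immune gene in any comparison and did not pass (adjusted p = 0.999).

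Psmb10 (MECL-1), the immune form of the trypsin-like subunit, had signals of 437, 402, 876, and 442 in zinc sulfate, 697, 545, 783.5, and 534 in PM-HD, and 489, 396, 711, and 337 in PM-LD hearts. They were 511, 418, 917, and 577 in PM-L, 808, 598, 598, and 782 in MSH, and 476, 637.5, 525, and 758 in saline hearts. The MSH rats all lay above 3 of the 4 zinc sulfate rats and below the remaining one. Zinc sulfate differed from MSH by −0.33 (−0.81 to 0.15) and MSH from saline by 0.21 (−0.27 to 0.69), and neither passed.

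The activator genes were the steadier of the immune set. Psme1, the alpha chain of PA28 and the brightest member (a probe set's brightness is not a level comparable between genes), had signals of 7932, 7997.5, 4254, and 8556.5 in zinc sulfate, 6975, 6109.7, 6273, and 5292 in PM-HD, and 7358, 7817, 4812, and 7166 in PM-LD hearts. They were 6586, 7064, 5073, and 5873 in PM-L, 6051, 6209, 6038, and 6248 in MSH, and 6869.9, 7740, 6837, and 4632 in saline hearts. The zinc sulfate rat that was high in Psmb8, Psmb9, and Psmb10 was the lowest of its group in Psme1. All log2 differences of Psme1 from saline lay between −0.05 and 0.02, with 95% intervals inside −0.38 to 0.33.

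Psme2, the beta chain, had signals of 1312, 1183, 1433.5, and 1344 in zinc sulfate, 1519.6, 1423, 1139, and 1214 in PM-HD, and 1273, 1069, 1348, and 959.6 in PM-LD hearts. They were 1641, 1087, 1367, and 1426 in PM-L, 1579.8, 1201.5, 1301, and 1365 in MSH, and 1194.5, 1308, 1209, and 1322 in saline hearts. The saline rats lay inside the range of every exposed group except MSH, where the lowest saline rat was just below the lowest MSH rat. Its log2 differences from saline ran between −0.11 with PM-LD and 0.14 with PM-L, and none passed.

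**Figure D1:**
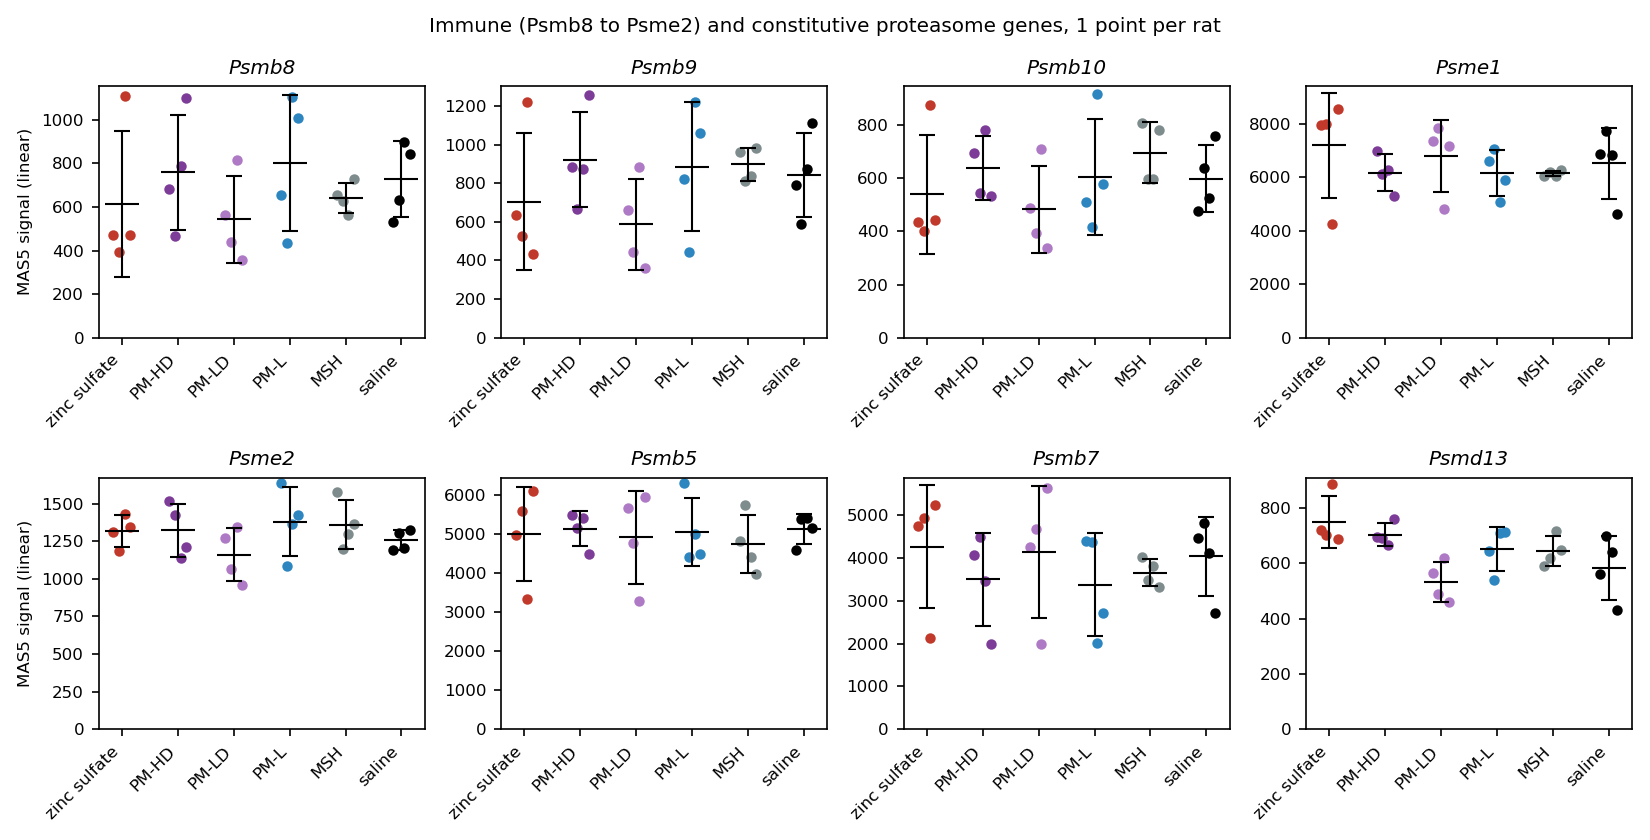
MAS5 signal on a linear axis for the 5 immune genes and for Psmb5, Psmb7, and Psmd13, with 1 point per rat, groups along the horizontal axis, and bars for the mean ± SD (n = 4). The third zinc sulfate rat is high in Psmb8, Psmb9, and Psmb10 and low in Psme1 and Psmb7, and the groups of the immune genes overlap saline.

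The constitutive catalytic genes did not pass either. Psmb5, the partner that Psmb8 replaces, had signals of 4958, 5579, 3337, and 6084 in zinc sulfate, 5483, 5138, 5391, and 4487 in PM-HD, and 5649, 4758, 3289.7, and 5939 in PM-LD hearts. They were 6289, 4394, 4999.7, and 4489 in PM-L, 4822, 5735.5, 4417, and 3969 in MSH, and 4582, 5368, 5391, and 5139.5 in saline hearts. The saline rats lay within the range of each of the 5 exposed groups, and the log2 differences from saline ran between −0.19 with zinc sulfate and 0.02 with PM-HD.

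Psmb7, the partner of Psmb10, varied more between rats. Its signals were 4749, 4932, 2138, and 5233.5 in zinc sulfate, 4071, 4485, 3450.5, and 1998 in PM-HD, and 4246, 4679, 1985, and 5627 in PM-LD hearts. They were 4401, 4373, 2025, and 2707 in PM-L, 4023, 3487, 3808, and 3317 in MSH, and 4478, 4825, 4118, and 2716 in saline hearts. Every group but MSH held at least 1 rat far below the rest, and the log2 differences from saline ran between −0.30 with PM-L and −0.06 with MSH. Psmb6, the partner of Psmb9, was read only by a probe set annotated to Psmb6l1 as well and was not a member.

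Across all 43 members, 1 was called against saline with zinc sulfate (2.33%, beside 4.46% of all 15866 probe sets) and 0 with PM-HD (beside 3.67%), PM-LD (4.11%), PM-L (4.25%), and MSH (3.57%). Zinc sulfate against MSH called 2 (4.65%, beside 6.66%). Of all probe sets 2.41% were higher and 2.05% lower with zinc sulfate than with saline, 2.04% and 1.63% with PM-HD, 2.24% and 1.87% with PM-LD, 2.43% and 1.82% with PM-L, 1.83% and 1.75% with MSH, and 3.66% and 2.99% with zinc sulfate against MSH. All 3 called members were higher. Among genes above the median signal, as all members were, the called share was 2.13% with zinc sulfate, 1.63% with PM-HD, 2.08% with PM-LD, 2.16% with PM-L, 1.51% with MSH, and 5.02% for zinc sulfate against MSH. The shares of the members thus stood near those of other bright genes.

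No member passed at an adjusted p below 0.05 in any comparison, beside 0.0126% of all probe sets with PM-L and 0 in the other 5 comparisons. At an unadjusted limma p below 0.05, 1 member passed with zinc sulfate (beside 4.92% of all probe sets), 0 with PM-HD (3.93%), PM-LD (4.49%), PM-L (4.65%), and MSH (3.8%), and 2 for zinc sulfate against MSH (7.27%). The 4 rats of each group did not overlap for 2 members with zinc sulfate (beside 2.72% of all probe sets), 0 with PM-HD (2.1%), 0 with PM-LD (2.29%), 1 with PM-L (2.37%), 0 with MSH (3.13%), and 3 for zinc sulfate against MSH (5.16%). The median log2 difference of the members lay between −0.02 and 0.02 in the 6 comparisons, beside −0.01 to 0.00 for all probe sets. All comparisons with saline share the same 4 saline rats.

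The intervals bound how large a missed change could be. The 95% interval of all 43 members lay within a 2-fold change in either direction in each comparison, except that of Psmb8 and Psmb9 with PM-LD. It lay within the fold limits of the test for 7 to 10 members, depending on the comparison. A test across the 6 groups (limma F test) passed for 1 member before adjustment, Psmd13 (limma adjusted p = 0.972), beside 5.01% of all probe sets.

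**Figure D2:**
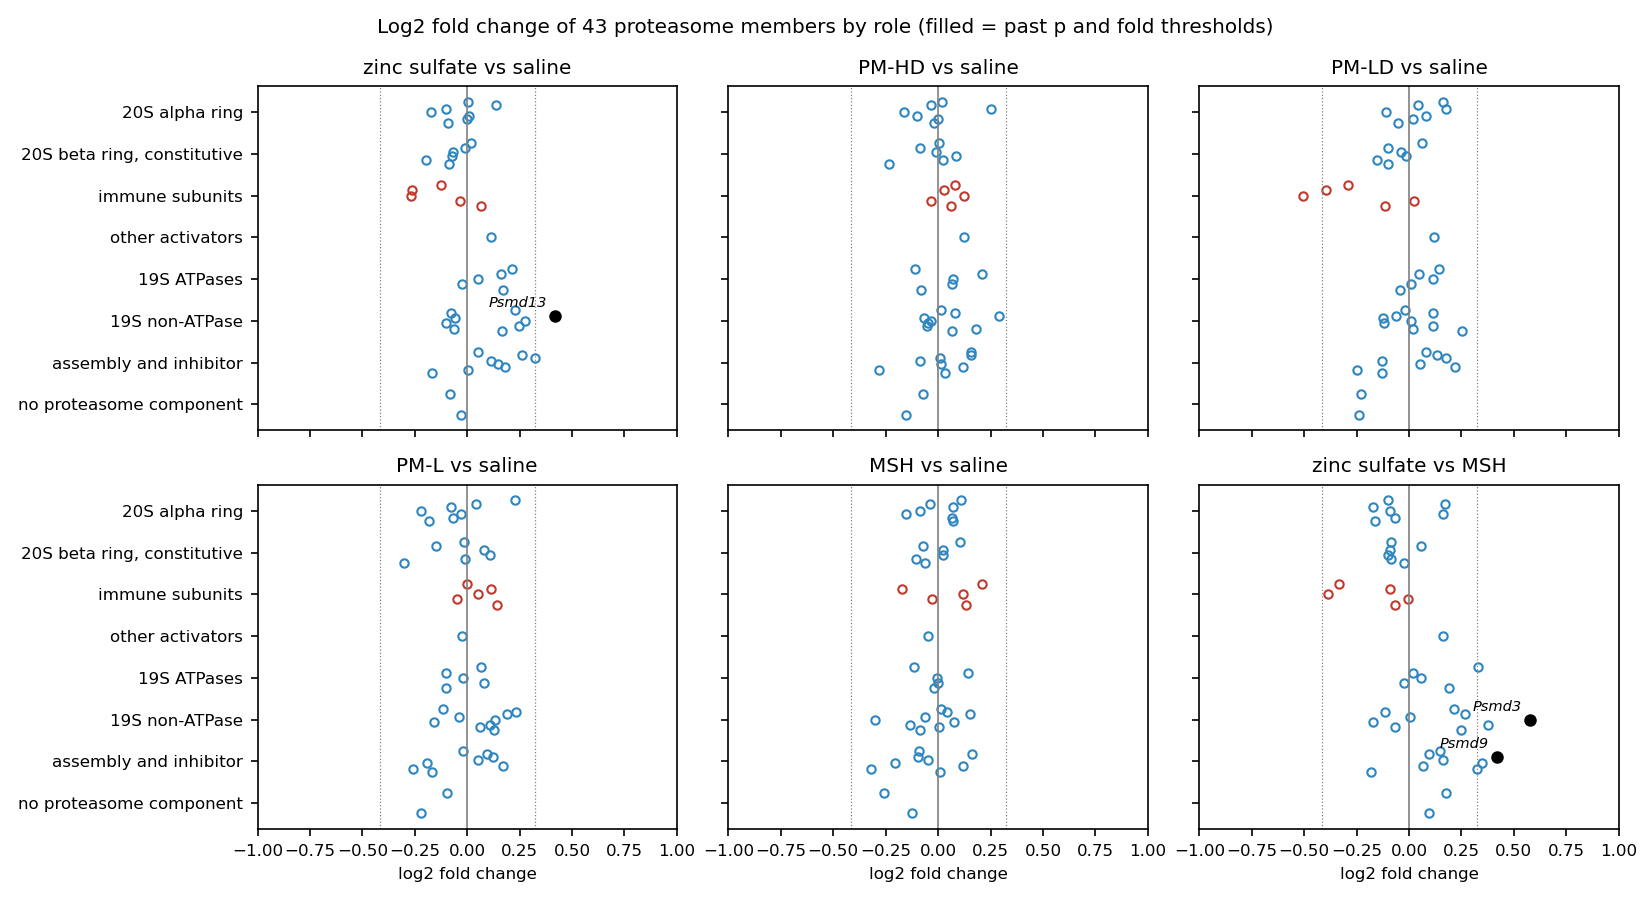
Log2 fold change (horizontal axis) of each of the 43 members, in rows by role, for the 6 comparisons. Open points did not pass, the 3 filled points did, dotted lines mark the fold limits of the test, and the immune subunits are in red. Psmb9 with PM-LD, at −0.51, is the lowest point of any panel.

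The 3 called members belong to the 19S particle or its assembly. Psmd13, the lid subunit Rpn9, rose with zinc sulfate, with signals of 720, 701, 888, and 690.1 in zinc sulfate hearts, against 563, 699, 640.4, and 433 in saline hearts. The remaining groups held 696.5, 692, 667, and 762 with PM-HD, 567, 488, 619, and 459.6 with PM-LD, 645, 539.9, 712, and 712 with PM-L, and 589.6, 620.1, 717.5, and 647 with MSH. On the normalized scale the zinc sulfate and saline rats did not overlap, although the deposited signals of 1 rat in each group crossed. The difference was 0.42 on the log2 scale (SE 0.16, limma adjusted p = 0.999, exact permutation p = 0.0286, the smallest that 4 against 4 rats can give). Without saline replicate 4 it was 0.26 and without zinc sulfate replicate 3 it was 0.36, and neither passed.

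Psmd3, the lid subunit Rpn3, was higher with zinc sulfate than with MSH. Its signals were 854, 1086, 780, and 1272 in zinc sulfate hearts, against 743, 621, 564, and 705 in MSH hearts. All 4 zinc sulfate rats lay above all 4 MSH rats. The difference was 0.58 (SE 0.18, limma adjusted p = 0.502, exact permutation p = 0.0286). Signals with the particles were 747.5, 948, 773, and 731 in PM-HD, 869.5, 1010.1, 472.5, and 1097 in PM-LD, and 1041, 1046, 836, and 684 in PM-L hearts, against 1048, 806, 713, and 709 in saline hearts, which overlapped every exposed group.

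Psmd9, a chaperone of the 19S base and the dimmest member, was also higher with zinc sulfate than with MSH. Its signals were 365, 320.5, 415, and 398 in zinc sulfate hearts, against 333, 275, 283, and 310 in MSH hearts. The signals of 1 rat in each group crossed, but after normalization the groups did not overlap. The difference was 0.42 (SE 0.18, limma adjusted p = 0.644), and the call was lost on leaving out MSH replicate 2 (0.38), MSH replicate 3 (0.41), zinc sulfate replicate 1 (0.42), or zinc sulfate replicate 4 (0.37). PM-HD rats held 327, 430.1, 262, and 284, PM-LD rats 349.9, 325, 302, and 407, PM-L rats 371, 384, 358.5, and 281, and saline rats 359, 226, 327, and 345.

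The Gapdh ratio was not spread evenly over this last pair of groups: 3 zinc sulfate arrays lay between 1.42 and 1.52 and the remaining one at 5.57, whereas the MSH arrays lay between 2.02 and 3.31. Among markers of tissue components, Dcn and Col3a1 of 6 fibroblast markers and Acta2 of 4 smooth muscle markers were called lower with zinc sulfate than with MSH. No marker of the other lists was called, and of all probe sets 6.66% were called, 2.99% of them as lower. The groups overlapped for each of these genes (limma adjusted p = 0.660 for Dcn, 0.671 for Col3a1, and 0.675 for Acta2). The summed fibroblast signal was 15412 to 17800.2 in zinc sulfate hearts and 17144 to 24419 in MSH hearts, and that of smooth muscle was 2119 to 3547 in zinc sulfate hearts and 2835 to 4199 in MSH hearts. Per doubling of the Gapdh ratio, fitted within groups over all arrays, the log2 slope of Psmd3 was −0.28 (SE 0.07, limma adjusted p = 0.0021). That of Psmd9 was −0.16 (SE 0.06, limma adjusted p = 0.04996). Both genes thus read lower at a higher ratio. The part of the ratio and of these markers in the Psmd3 and Psmd9 differences was not tested.

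By role, called members included, the differences from saline had the following ranges. The 7 alpha ring genes had log2 differences from saline of −0.22 to 0.25, the 6 constitutive beta ring genes −0.30 to 0.11, and the 5 ATPase genes of the 19S ring −0.12 to 0.21. The 9 non-ATPase genes of the 19S particle ran between −0.30 and 0.42, and the 8 genes of assembly chaperones and the inhibitor between −0.32 and 0.32. The upper end of the 19S range was Psmd13 with zinc sulfate and its lower end Psmd3 with MSH, and the upper end of the assembly range was Psmd9 with zinc sulfate. Psma4, of the alpha ring, was lower in all 4 PM-L rats (1071 ± 28.8, mean ± SD) than in all 4 saline rats (1261 ± 56.1), at a log2 difference of −0.22 that did not pass. Psmd5, a chaperone of the 19S base, was higher in all 4 zinc sulfate rats (461 ± 46.7) than in all 4 saline rats (402 ± 67.1) after normalization, at 0.26, which did not pass either.

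Where a gene had more than 1 probe set, the choice of probe set mattered for Psme4 (PA200), a nuclear activator. Its brightest set was not called in any comparison, but its dimmest was called higher with PM-LD than with saline (933 ± 296 and 573 ± 36.0, log2 difference 0.63, limma adjusted p = 0.999) and higher with zinc sulfate than with MSH (711 ± 102 and 524 ± 86.7, 0.48, adjusted p = 0.601). The other two of the 3 sets gave 0.12 and 0.07 with PM-LD and 0.16 and 0.27 with zinc sulfate against MSH. The 2 sets of Psmd11 were called in no comparison.

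Partners of the proteasome were read from a list of 33 genes, of which 22 were measured. Akirin2, needed for nuclear import of proteasomes, was called in 3 comparisons. Its signals were 261, 233, 221, and 289.5 in zinc sulfate and 167, 305, 251, and 347 in PM-LD hearts, against 148, 132, 181, and 171 in MSH and 201, 112.5, 207, and 210.4 in saline hearts. PM-L hearts held 222, 350, 213, and 259 and PM-HD hearts 144, 200, 232, and 219, and neither group was called. In the deposited signals every zinc sulfate rat and every PM-L rat lay above every MSH rat and every saline rat. The log2 difference was 0.54 (SE 0.20, adjusted p = 0.999) for zinc sulfate and 0.53 (SE 0.25, adjusted p = 0.999) for PM-LD against saline, and 0.77 (SE 0.20, adjusted p = 0.502) for zinc sulfate against MSH. On the normalized scale the groups overlapped in both called comparisons with saline (exact permutation p = 0.0571 for zinc sulfate and 0.171 for PM-LD). The call for zinc sulfate against saline was lost without saline replicate 2 (0.37) or zinc sulfate replicate 4 (0.45), and that for PM-LD in 7 of 20 alternatives, among them leaving out saline replicate 2 (0.37) or 4 (0.55) or PM-LD replicate 2 (0.42) or 4 (0.37), whereas that against MSH was kept in all 20.

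Nfe2l1, the factor that raises proteasome genes, was called higher with zinc sulfate than with MSH. Its signals were 1554, 1817.5, 1226, and 1842 in zinc sulfate hearts, against 1095, 1329, 1123, and 939 in MSH hearts, at a log2 difference of 0.46 (SE 0.16, adjusted p = 0.551). The lowest zinc sulfate rat lay below the highest MSH rat. Against saline Nfe2l1 was not called with zinc sulfate (0.22, 95% interval −0.11 to 0.55), and with PM-HD its signals of 931, 1158, 1169.6, and 985 all lay below the 1352, 1437, 1269, and 1249.7 of saline hearts, at −0.33 (exact permutation p = 0.0286, limma adjusted p = 0.999), which was not called. Nfe2l1 fell by 0.21 per doubling of the Gapdh ratio (adjusted p = 0.0019), the ratio that differed between zinc sulfate and MSH arrays, and its part was not tested. Of the 22 partners measured, 1 was thus called with zinc sulfate (beside 4.46% of all probe sets) and 1 with PM-LD (4.11%). For zinc sulfate against MSH 2 were called (6.66%), and 0 with PM-HD (3.67%), PM-L (4.25%), and MSH (3.57%). On the normalized scale the groups did not overlap for 2 partners with zinc sulfate (2.72%), 1 with PM-HD (2.1%), and 4 for zinc sulfate against MSH (5.16%). The median log2 difference of the list ran between −0.04 and 0.08.

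The antigen presentation list, to which the immune subunits belong by function, had 18 of 21 genes measured, with Tap1, Tap2, B2m, and the interferon regulatory factors among them. Irf2 was called lower with PM-HD, at signals of 22, 9, 20.3, and 13, against 43.5, 62.5, 60.5, and 15 in saline hearts (log2 difference −0.86, SE 0.36, adjusted p = 0.999). These signals are dim and lie near the added 16, the groups overlapped (exact permutation p = 0.143), and the call was lost in 8 of 20 alternatives, among them leaving out saline replicate 1 (−0.79), 2 (−0.69), or 3 (−0.74) or PM-HD replicate 2 (−0.79) or 4 (−0.81). With PM-HD 3.67% of all probe sets were called. No other gene of the list was called in any comparison, and its median log2 difference ran between −0.16 and 0.04.

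Immune and constitutive genes were also set against each other within each rat. For each rat the mean log2 signal of the 5 immune genes minus that of the 36 constitutive genes was taken relative to the saline mean. It was −0.18 ± 0.50 (mean ± SD, n = 4) with zinc sulfate, 0.04 ± 0.29 with PM-HD, −0.28 ± 0.46 with PM-LD, 0.06 ± 0.46 with PM-L, 0.08 ± 0.14 with MSH, and 0 ± 0.27 with saline. Each exposed group held rats on both sides of the saline mean, and every group overlapped saline. With zinc sulfate the overlap rested on replicate 3 (0.57, Gapdh ratio 5.57): the other 3 rats, at −0.33, −0.51, and −0.45, lay below every saline rat, the lowest of which was at −0.25, and without replicate 3 the difference from saline was −0.43. Saline replicate 4 (0.36, Gapdh ratio 5.48) was kept in that difference. The differences of all groups were not tested.

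Within the groups the members differed between rats by unequal amounts, which were not tested against each other. The median SD within groups was 0.35 on the log2 scale for the 5 immune genes and 0.23 for the 36 constitutive genes, beside 0.29 for genes above the median signal. Psmd1 (0.46), Psmb8 (0.46), Psmb9 (0.45), Psmd6 (0.43), and Psmb7 (0.43) had the largest SD, and Psmb1 (0.10) the smallest. Of the immune genes Psmb10 had an SD of 0.35, whereas Psme1 and Psme2, at 0.18 each, lay below the constitutive median. These SDs follow from the same rats whose Gapdh ratios differ.

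The immune core subunits varied together. After the group means were removed, Psmb8 and Psmb9 correlated over the 24 rats at r = 0.92 (permutation p = 3.0e-05, adjusted over 10 pairs 0.00030; Spearman's rho 0.89, p = 3.0e-05, adjusted 0.00030), and r was 0.88 without the 2 rats farthest from the median. Psmb8 and Psmb10 gave r = 0.71 (permutation p = 0.0026, adjusted 0.0089) and rho = 0.63 (p = 0.0058, adjusted 0.014), with r = 0.59 without the farthest 2. Psmb9 and Psmb10 gave r = 0.70 (permutation p = 0.0027, adjusted 0.0089) and rho = 0.64 (p = 0.0053, adjusted 0.014), with 0.59 without the farthest 2. Psme2 gave r = 0.63 with Psmb10, 0.57 with Psmb9, and 0.45 with Psmb8. Psme1 ran against the other immune genes, at r between −0.65 and −0.40.

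Once the Gapdh ratio was also removed, r was 0.52 for Psmb8 with Psmb9 and −0.14 for each of them with Psmb10. For Psme1 with the other immune genes it then lay between −0.13 and 0.23. For Psme2 it was 0.49 with Psmb10, 0.42 with Psmb9, and 0.10 with Psmb8. The median r among constitutive members was 0.34, and 0.18 after the Gapdh ratio was removed, beside 0.00 among genes above the median signal. The median r of Psmb8, Psmb9, and Psmb10 with the constitutive members was −0.48, and 0.05 after the Gapdh ratio was removed.

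Over all 24 arrays, immune core subunits rose and many constitutive members fell with the Gapdh ratio. The slope of log2 signal per doubling of the Gapdh ratio was fitted within groups over all 24 arrays, a test chosen after the values had been seen. At an adjusted p below 0.05, 3 members rose and 19 fell (22 of 43, beside 35.5% of all 15866 probe sets, of which 18.1% rose and 17.4% fell). Among probe sets above the median signal, fitted alone, 62.1% passed, and 25 of the 43 members did (3 rose and 22 fell). Few of these calls were made without the 9 arrays above 3, over fewer rats and a narrower range of ratios: 1 of 43 members passed, an immune gene that rose, and 0 of 36 constitutive members fell, and with the beta-actin ratio in place of that of Gapdh 2 immune genes rose and 11 of 36 constitutive members fell. Of all 15866 probe sets 742 passed without those 9 arrays and 3209 with the beta-actin ratio. With arrays centred on their median instead of quantile normalized, 3 members rose and 34 fell, and of all probe sets 2120 rose and 3645 fell. Psmb8 rose by 0.50 (SE 0.06, limma adjusted p = 7.9e-07), Psmb9 by 0.49 (SE 0.06, adjusted p = 1.2e-06), and Psmb10 by 0.34 (SE 0.06, adjusted p = 0.00016). Psme1 fell by 0.15 (SE 0.04, adjusted p = 0.012), and Psme2, at 0.10 (95% interval −0.01 to 0.21), did not pass.

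Among constitutive members 18 of 36 fell and 0 rose. Psmd1, the large scaffold of the 19S base, fell by 0.51 (SE 0.05), the lid subunit Psmd6 by 0.48 (SE 0.05), Psmb7 by 0.45 (SE 0.06), the ATPase Psmc5 by 0.39 (SE 0.05), and the lid subunit Psmd8 by 0.38 (SE 0.04). By role, 3 of 7 alpha ring genes fell, 1 of 6 beta ring genes, 2 of 5 ATPases, 6 of 9 other 19S genes, and 6 of 8 genes of assembly and the inhibitor. Psmb5, at −0.01 (95% interval −0.14 to 0.13), Psmb3, at 0.04 (−0.05 to 0.13), and Psmd13, at 0.01 (−0.10 to 0.12), did not pass.

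Psmd6 serves as an example in the deposited signals. In the rats with the highest Gapdh ratio of their group, Psmd6 had signals of 1145.5 with zinc sulfate (ratio 5.57), 1217 with PM-HD (4.81), 962 with PM-LD (4.64), 1363.5 with PM-L (5.62), 1445 with MSH (3.31), and 1086 with saline (5.48). The remaining rats of the zinc sulfate group had 2346, 2423, and 2573, and those of the saline group 2333, 1944, and 1561. The order did not hold in every group: MSH replicate 4, at 1251, lay below MSH replicate 1 although its ratio was lower, and PM-L replicate 4, at 1379.7 with a ratio of 3.09, lay close to PM-L replicate 3. The immune minus constitutive difference was 0.33 ± 0.17 (range 0.05 to 0.57) on the 9 arrays with a Gapdh ratio above 3 and −0.27 ± 0.22 (−0.72 to 0.04) on the other 15. These sets of arrays, which hold all 6 groups, were made from the control probe sets and not from the exposures. They did not overlap, by a narrow gap (lowest 0.0511 above the ratio of 3, highest 0.0445 on the other arrays). The split restates the slopes of the same members on the same ratio, chosen after the values had been seen, and is no separate test.

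**Figure D3:**
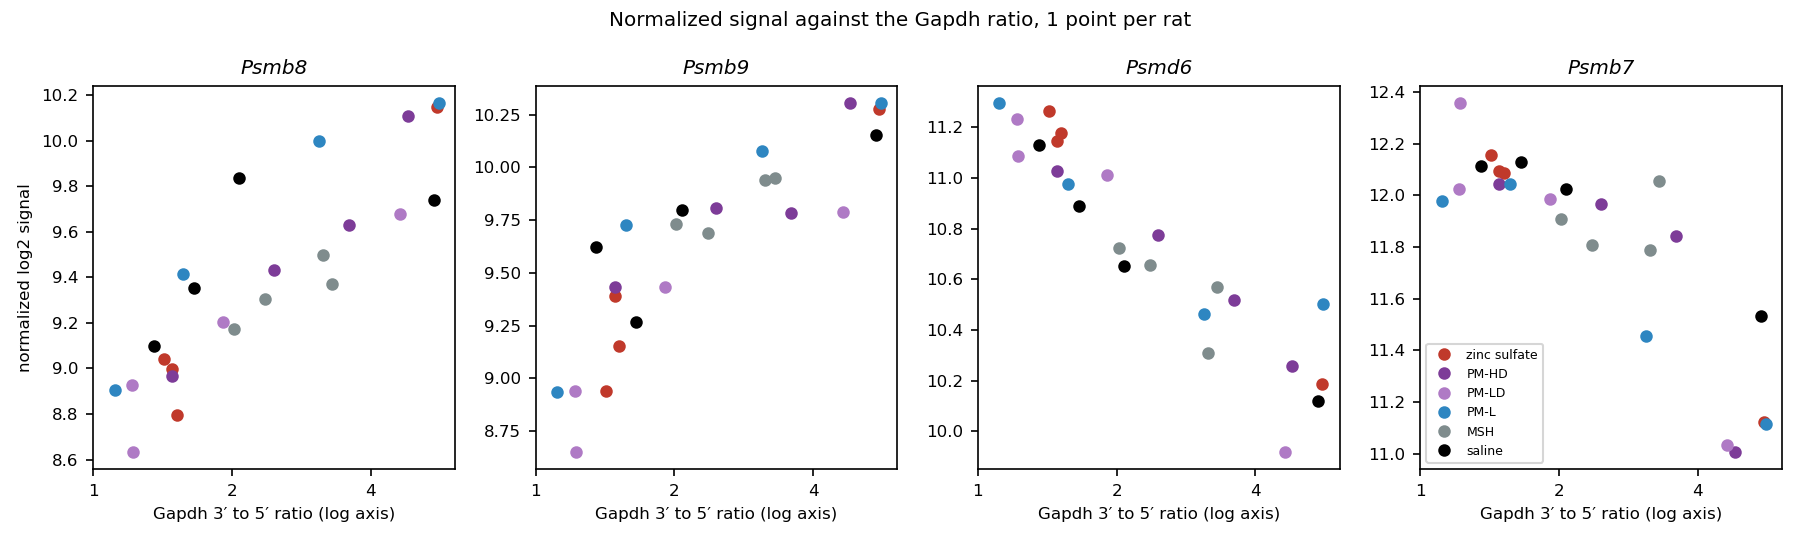
Normalized log2 signal of Psmb8, Psmb9, Psmd6, and Psmb7 (vertical axis) against the Gapdh 3′ to 5′ ratio on a log axis, 1 point per rat, colored by group. Psmb8 and Psmb9 rise along the ratio and Psmd6 and Psmb7 fall, with points of all groups along the same band.

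**Figure D4:**
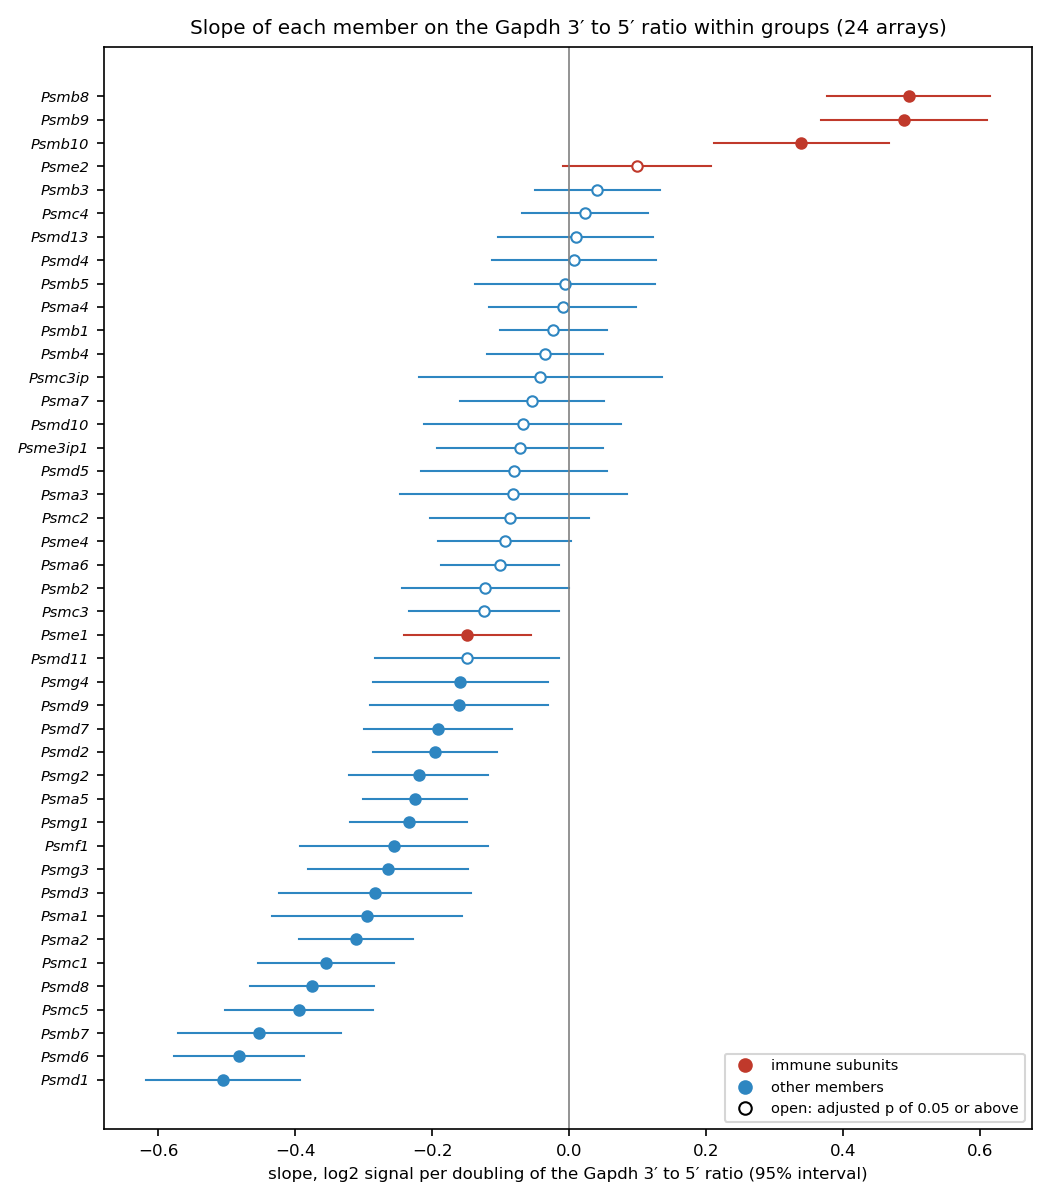
Slope of each of the 43 members on the Gapdh ratio (log2 signal per doubling of the ratio, 24 arrays), with its 95% interval, sorted, with immune subunits in red. Filled points passed at an adjusted p below 0.05: Psmb8, Psmb9, and Psmb10 above 0 and 19 members below it.

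Slopes of the other lists come from the fit of all 15866 probe sets, of which 2876 rose and 2762 fell. Of probe sets above the median signal, fitted alone with their own adjustment, 2540 of 7933 rose and 2390 fell. Not every list gene lay above that median, as 4 of 11 leukocyte and 2 of 4 skeletal muscle markers did. Of the antigen presentation list 10 of 18 rose and 0 fell, among them Tap1 by 0.69 (SE 0.16), Ifngr1 by 0.64 (SE 0.06), and B2m by 0.46 (SE 0.04). Of the partners 6 of 22 fell and 0 rose, led by the segregase genes Nploc4, which fell by 0.64 (SE 0.05), and Vcp, which fell by 0.39 (SE 0.04). All 3 endothelial markers measured rose (Pecam1 by 0.88, SE 0.10), as did 5 of 6 fibroblast, 3 of 4 smooth muscle, and 2 of 11 leukocyte markers, Lyz2 and Aif1. Of 6 ventricular cardiomyocyte markers 3 fell (Myl3 by 0.27, Tnni3 by 0.12, and Tnnt2 by 0.10) and Ryr2 rose by 0.53, of 4 atrial markers Nppa fell by 0.71, and of 4 genes listed as skeletal muscle markers Acta1 fell by 0.57 and Myh1 and Tnnt3 rose. In saline hearts Myh1 averaged a signal of 16447 and Acta1 10519, whereas Tnnt3 averaged 53.25 and Myh4 16.8. Whether these genes read skeletal muscle here was not tested. Ptprc and Cd3e, defining genes of leukocytes and T cells, had slopes of 0.02 (−0.21 to 0.25) and −0.04 (−0.43 to 0.34) and did not pass. Neither the part of RNA quality nor that of these cell types in the slopes of the members was tested.

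With the 9 arrays of high Gapdh ratio left out, more members were called. Of the 43, 10 were called for zinc sulfate against MSH (beside 13.4% of all probe sets), 3 for zinc sulfate against saline (7.19%), 2 for PM-LD (6.39%), 2 for PM-L (4.95%), 1 for MSH (5.17%), and 0 for PM-HD (4.53%). Immune genes were among them: both calls with PM-LD were Psmb8, at −0.53 (SE 0.24, adjusted p = 0.696), and Psmb9, at −0.58 (SE 0.26, adjusted p = 0.696), and with zinc sulfate against saline Psmb8 was lower, at −0.51 (SE 0.22, adjusted p = 0.612), while Psmc1 and Psmd1 were higher, at 0.33 each. With PM-L Psma3 was lower and Psmc1 higher, and with MSH Psmd3 was lower. Between 2 and 3 rats per group remained, and no member passed at an adjusted p below 0.05. Zinc sulfate against MSH then gave 9 constitutive genes higher, among them Psmd3 by 0.86 (SE 0.22), Psmd1 by 0.56 (SE 0.14), Psmg1, an assembly chaperone, by 0.55 (SE 0.14), and Psmd6 by 0.51 (SE 0.17), and Psmb9 lower, at −0.57 (SE 0.22). The Gapdh ratio of the arrays left did not overlap, at 1.42 to 1.52 with zinc sulfate and 2.02 to 2.36 with MSH, so that it and the exposure cannot be told apart there.

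Leaving out zinc sulfate replicate 3 alone, the array of Gapdh ratio 5.57, gave 4 members against saline (beside 8.3% of all probe sets) and 9 against MSH (beside 14.5%). The zinc sulfate arrays left had ratios of 1.42 to 1.52, whereas saline replicate 4, at 5.48, was kept. The MSH arrays, at 2.02 to 3.31, did not overlap them, so that the ratio and the exposure cannot be told apart there. Against saline the part of the ratio was not tested. Against saline Psmb8 was lower at −0.57 (SE 0.24, adjusted p = 0.551) and Psmb9 at −0.55 (SE 0.22, adjusted p = 0.541), and Psmd6 was higher by 0.50 (SE 0.23) and Psmd3 by 0.39 (SE 0.18). Against MSH Psmb9 was lower at −0.67 (SE 0.22, adjusted p = 0.221) and Psmb10 at −0.56 (SE 0.19, adjusted p = 0.227), and 7 constitutive genes were higher. With the Gapdh ratio as a covariate instead, over all rats, 1 member was called for zinc sulfate against saline, 2 against MSH, and 0 in the other 4 comparisons. The share of all probe sets called in that fit is not given here, so these counts cannot be set against it.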

How the data were processed

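The deposited values were linear intensity signals that the authors made with MAS5, as named in the submitters' processing notes, and the 2% trimmed mean of each array was 500.1 to 500.2. Precision is limited by how many arrays there are. Of 15923 probe sets, 57 controls were left out. To each signal 16 was added before log2 was taken, and values were quantile normalized over the 24 arrays, and tested in limma 3.58.1 (R 4.3.3), with Benjamini-Hochberg adjustment over 15866 probe sets. Zinc sulfate, PM-HD, MSH, and saline (16 arrays) shared a fit, and the fit of all 24 gave PM-LD, PM-L, the F test, and the slopes. On each array 4.70% to 10.6% of signals were below 16. Exact permutation tests were two-sided over 70 arrangements, and correlations used 100000 permutations within groups. Intervals are at the 95% level.

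Members and lists were chosen with earlier results of these data known. Genes described rat by rat were the immune subunits, the constitutive catalytic subunits, the brightest and dimmest members, and every called member, and list genes were named where called. Psmd1, Psmd6, and the other genes named for their slope were chosen after their values were seen. Probe sets were named from the platform annotation, 12783 of them with 1 symbol, and all 43 members matched RefSeq (GRCr8), which served for names and promoter sequences only. The p-values measure the spread between rats. The scripts were tested on simulated data. Alternatives were pseudocounts of 1 and 64, median centring, other filters, fits, and probe sets, a replicate block, the Gapdh ratio, atrial transcripts, and leaving out each array.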

Additional observations from a re-analysis of the deposited data

Results flagged for a closer look

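The third zinc sulfate rat stood apart from the other 3 of its group in 5 of the measures examined. Its Psmb10 signal was 876.2, with the nearest rat at 441.9, and its Psmd13 signal was 888.3, with the nearest at 720. Its Psme1 signal was 4254, with the nearest at 7932, and its Psmb7 signal was 2138.4, with the nearest at 4749. Its immune minus constitutive difference was 0.565, the highest of the group. The gap to the nearest rat exceeded Dixon's limit for 4 values in each case on the normalized log2 scale, on which all measures were examined, whereas the signals given here are the deposited linear ones. Chance alone marks about 1 in 20 groups, and 66 groups were examined. The 5 measures come from 1 array, and the difference is computed from genes that include the other 4, so they are not independent of each other. This rat's array had a Gapdh 3′ to 5′ ratio of 5.57, beside 1.42 to 1.52 for the other 3.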

How the results depend on the processing

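Counts of called members moved with the arrays used. For zinc sulfate against saline the count was 1 (beside 4.46% of all probe sets), and 0 with only the 2 groups fitted. It was 0 without the arrays of high atrial transcripts (4.87%), and 3 without the arrays of Gapdh ratio above 3 (7.19%). Without those last arrays it was 2 for PM-LD (6.39%), 2 for PM-L (4.95%), 1 for MSH (5.17%), and 10 for zinc sulfate against MSH (13.4%), and 4 members passed the F test (7.02%). Without the arrays of high atrial transcripts it was 1 for MSH (Psmc3ip, beside 4.01%), and 0 members passed the F test (4.44%). Leaving out each array in turn gave 0 to 4 for zinc sulfate against saline (0 without saline replicate 4, 4 without zinc sulfate replicate 3), 0 to 1 for PM-HD (1 without saline replicate 2), 0 to 1 for PM-LD (1 without saline replicate 1 or PM-LD replicate 3), 0 for PM-L, 0 to 1 for MSH (1 without saline replicate 1), and 1 to 9 for zinc sulfate against MSH (9 without zinc sulfate replicate 3, 1 without MSH replicate 2 or 3 or zinc sulfate replicate 1 or 4). For the F test it gave 0 to 2 (0 without PM-LD replicate 2 or 4 or zinc sulfate replicate 1 or 3, 2 without PM-LD replicate 3). Without zinc sulfate replicate 3, 8.3% of all probe sets were called for zinc sulfate against saline and 14.5% against MSH, and 5.92% passed the F test. For the other left-out arrays, and for the fit of only the 2 groups, no share of all probe sets is given here. The immune minus constitutive difference from saline ran, over the left-out arrays, between −0.43 and −0.06 for zinc sulfate, −0.08 and 0.16 for PM-HD, −0.48 and −0.13 for PM-LD, −0.11 and 0.24 for PM-L, and −0.01 and 0.20 for MSH, and between −0.51 and −0.15 for zinc sulfate against MSH. The cause was not tested.

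The slopes on the Gapdh ratio, with alternatives all added after the data had been seen, passed for 22 members, for 37 with median centring (3 rose and 34 fell, and of all probe sets 2120 rose and 3645 fell), for 14 with the beta-actin ratio, for 1 without the arrays of Gapdh ratio above 3 (over 15 arrays), and for 19 to 23 when each array was left out. Of all 15866 probe sets 5638 passed in the main fit, 3209 with the beta-actin ratio, and 742 without the arrays of Gapdh ratio above 3. The slope of Psme1 was 0.068 without the arrays of Gapdh ratio above 3. Replicate numbers did not pair the rats (median r of deviations at the same number 0.056, range −0.26 to 0.52). With the replicate block the counts of called members were 1 for zinc sulfate against saline, 0 for the other comparisons with saline, and 2 for zinc sulfate against MSH, and 1 member passed the F test. No share of all probe sets is given here for these counts. For the slopes 15 members passed, beside 3797 of all 15866 probe sets.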

Other observations

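Probe sets shared with another gene were kept out of the counts. That of Psmb6 and Psmb6l1 had a signal of 1691 ± 431 (mean ± SD, n = 4) with zinc sulfate, 1502 ± 424 with PM-HD, 1407 ± 342 with PM-LD, 1455.5 ± 136 with PM-L, 1336 ± 102 with MSH, and 1672 ± 318 with saline. It was called in no comparison. That of Psma3 and Psma3l, and the 4 annotated to Psme3 together with Aoc3 and G6pc1, were called in no comparison either.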
